A study of Homo sapiens with 5 samples.

Results

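Collagen chain genes encode the polypeptides that wind together, as trimers, into the collagens of the extracellular matrix. They were taken from the RNA sequencing of a lung adenocarcinoma cell line and its gefitinib-resistant derivative. The choice was by symbol: COL, digits, the letter A and digits, with COL17A1 left out by name. COL17A1, which the study lists among its leading lowered mRNAs, enters none of the counts, medians or sums given here. The pattern matched 40 entries of the table of 37181 entries, which are genes or loci put together from the reads by StringTie. COL8A1 had more than 1 entry and was represented by the entry with the highest mean, so 39 genes were described. They comprised 11 fibrillar chains, 6 basement membrane chains, 9 fibril-associated chains (FACIT, fibril-associated collagens with interrupted triple helices) and 13 other chains, which include the microfibrillar, network-forming, transmembrane and multiplexin types.

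Fibrillar collagens form the banded fibrils of connective tissue, whereas type IV collagen forms the sheet-like network of the basement membrane on which epithelial cells rest. The COL4A1 and COL4A2 chains assemble into the widespread type IV trimer, and COL4A5 also assembles with COL4A6 or with COL4A3 and COL4A4 in particular basement membranes. FACIT chains bind to the surface of fibrils, and type VI collagen forms beaded microfilaments that need the COL6A1, COL6A2 and a further chain such as COL6A3.

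HCC827 is an established human lung adenocarcinoma line with an activating EGFR exon deletion, and it is sensitive to gefitinib, an inhibitor of the EGFR kinase. HCC827/GR is its gefitinib-resistant derivative, obtained by exposing the parental cells to rising doses over months, and it carries the same EGFR deletion. The comparison asked which transcripts differ between the resistant and the parental cells, and it rested on 3 HCC827/GR libraries (replicates 1, 2 and 3) and 2 HCC827 libraries (replicates 2 and 3). Both groups are a single line each, and whether the HCC827/GR cells were a clone or were in gefitinib when RNA was taken is not given in the sources used here. Nothing states that the replicates were separate cultures, so the p-values measure the spread between libraries, which may be technical.

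Levels are FPKM (fragments per kilobase of transcript scaled to the mapped fragments of the library), so that values of different genes are per length. FPKM carries no read counts, the depth of each library is unknown, and no counting interval could be given. Changes are on the scale of log2(FPKM + 1), HCC827/GR minus HCC827, from limma with Benjamini-Hochberg adjustment over the 16189 entries whose mean reached 0.5 FPKM. This scale understates the change of genes near 1 FPKM, and for chains whose groups did not overlap the ratio of mean FPKM is given beside it. A gene was said to rise or fall where the adjusted p was under 0.05. In these bulk libraries, fewer cells that express a gene and less RNA per cell cannot be told apart.

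The labelled cell type was checked against markers. The epithelial keratins KRT8 and KRT18 were abundant in both groups, with KRT8 at 127–178 FPKM in HCC827/GR and 232–304 FPKM in HCC827. The summed level of the 5 epithelial markers with an entry was 443–573 FPKM in HCC827/GR and 1063–1182 FPKM in HCC827. EPCAM, KRT18, KRT19 and CDH1 fell in HCC827/GR, and KRT8 did not pass the test. The call of EPCAM was kept with every library left out in turn, whereas that of KRT18 was lost without any 1 of them, that of KRT19 without HCC827/GR replicate 1 or HCC827 replicate 2, and that of CDH1 without HCC827 replicate 2 or 3. Among 9 fibroblast markers the summed level was 11.3–14.8 FPKM in HCC827/GR and 2.99–3.31 FPKM in HCC827. Most of the former was FBLN1, a basement membrane and elastic fibre glycoprotein, which rose by 3.26 (SE 0.15, limma adjusted p = 0.00234). PDGFRA stood at 1.88–1.91 FPKM in HCC827/GR and 2.40–2.53 FPKM in HCC827 and did not pass the test. PDGFRB, below the filter, stood at 0.184–0.278 FPKM in HCC827/GR and 0.00777–0.0147 FPKM in HCC827. The other 6 (DCN, LUM, FAP, THY1, DPT and MFAP5) stayed at or under 0.257 FPKM in every library, and DPT was listed at 0 in all 3 HCC827/GR libraries. Among them LUM was lower in HCC827/GR, at 0.0123–0.0255 FPKM against 0.0930–0.257 FPKM in HCC827. FAP was lower too, at 0.0110–0.0216 FPKM in HCC827/GR and 0.157–0.253 FPKM in HCC827, and both were below the filter. Of the endothelial markers, PECAM1 stood at 0 as listed in each HCC827/GR library and at 4.34 and 3.32 FPKM in HCC827. PECAM1 fell by 2.26 (SE 0.14, limma adjusted p = 0.00390), and VWF, CDH5 and TEK were at or under 0.0749 FPKM throughout. Of the 3 leukocyte markers with an entry, PTPRC reached 0.0228 FPKM and CD14 0.267 FPKM at most, and CD68, a lysosomal protein, lay at 32.9–38.2 FPKM in HCC827/GR and 30.8–38.9 FPKM in HCC827. The part of these shifts in the collagen values was not tested.

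The summed level of the 39 collagen chain transcripts in HCC827/GR was 3.09 times that in HCC827, and single chains went in both directions. COL4A1 and COL4A2 of the basement membrane, COL12A1 of the FACIT class, COL5A1 and COL27A1 of the fibrillar class, and COL6A2 and COL18A1 rose in HCC827/GR, by between 0.91 and 3.04 on the log2 scale. COL4A5, the X-linked basement membrane chain, fell by 0.88. COL6A1, COL4A6, COL1A1 and COL8A1 did not pass the test. The remaining 27 of the 39 chains had a mean under 0.5 FPKM and were not tested.

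Of the 12 chains tested, 7 rose and 1 fell, where 5.26% of all 16189 entries tested rose and 5.71% fell. The median change of the 12 was 1.08, beside 0.0014 over all entries tested. For 10 of the 12 the mean was at least 0.5 FPKM in each group, so that neither group alone carried them past the filter. The exceptions were COL4A6, which is under that level in HCC827/GR, and COL8A1, which is under it in HCC827. The thresholds the study used ask for a fold change of 2 or more, or of 0.5 or less, and an unadjusted p under 0.05. They were applied here to the limma p, so the counts are not those of the study's own test. With the fold taken on FPKM + 1, 6 chains were higher, where 2.96% of all entries tested were, and 0 were lower, where 3.97% were. With the fold taken as the ratio of mean FPKM, 8 were higher, COL27A1 and COL6A1 being added, and 2 were lower, COL4A5 and COL4A6, where 5.68% and 7.42% of all entries tested were. With each library left out in turn, between 2 and 6 chains rose. COL4A1 and COL4A2 rose each time, whereas the fall of COL4A5 was lost each time. The study, which used Ballgown, lists COL4A1 among its leading raised mRNAs. Ballgown's model was refitted here to the 5 libraries, with its covariate for library size, and the tool itself was not run. With this refitted model no chain passed an adjusted p under 0.05 and 13 of all entries tested did. At an unadjusted p under 0.05, that model gave 6 of the 12 chains higher and 1 lower, where it gave 9.44% and 8.74% of all entries tested. At the same threshold limma gave 8 higher and 2 lower, where it gave 13.4% and 13.8% of all entries tested.

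**Figure D1:**
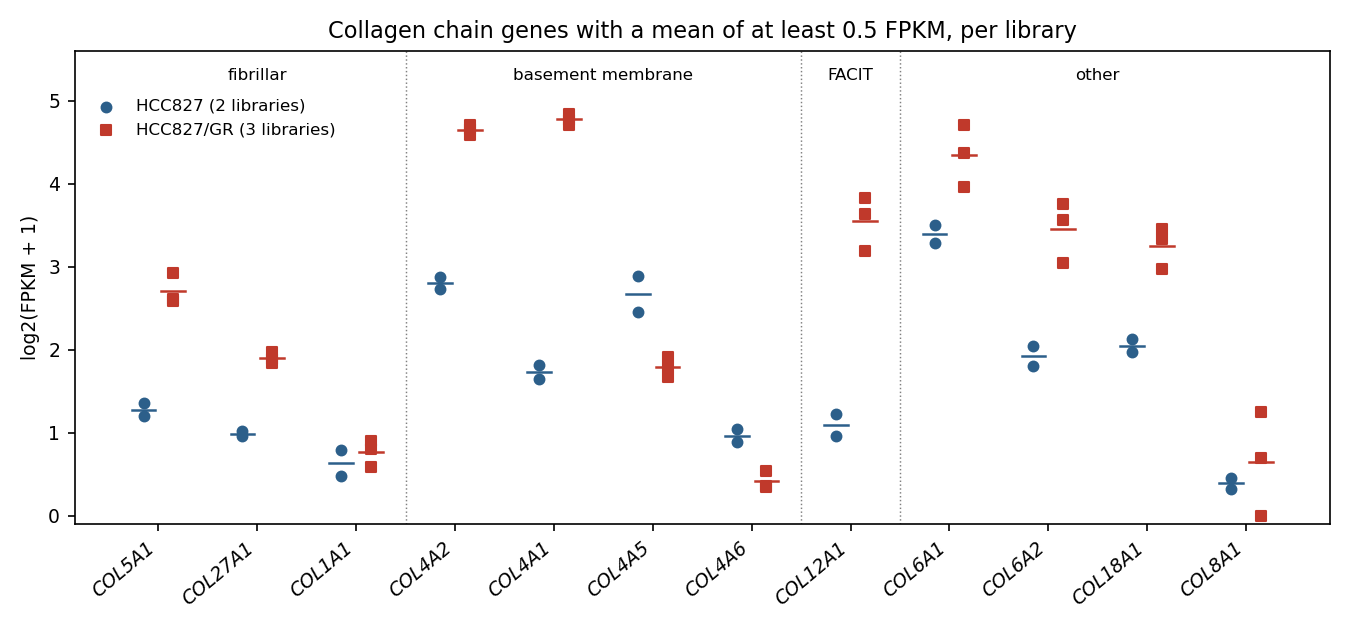
Level of the 12 tested collagen chain genes in each library, as log2(FPKM + 1) on a linear axis. Blue circles are the 2 HCC827 libraries, red squares the 3 HCC827/GR libraries, short lines the group means, and dotted lines part the classes. For COL4A1, COL4A2, COL12A1, COL5A1, COL27A1, COL6A1, COL6A2 and COL18A1 every red square lies above both blue circles, and for COL4A5 and COL4A6 every red square lies below them.

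**Figure D2:**
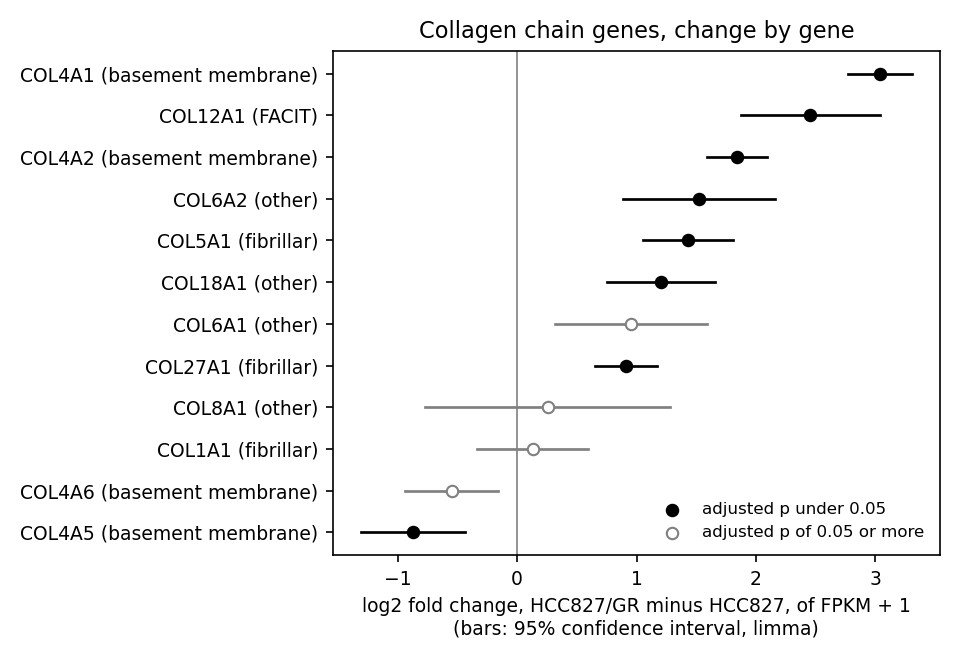
Change of the 12 tested collagen chain genes, ordered by size, as the log2 fold change of FPKM + 1 (HCC827/GR minus HCC827). Points are limma estimates, bars 95% confidence intervals, and filled points an adjusted p under 0.05. The largest value is 3.04 for COL4A1 and the smallest is -0.88 for COL4A5, and the intervals of COL1A1 and COL8A1 cross 0.

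The basement membrane chains did not move together, as COL4A1 and COL4A2 rose and COL4A5 fell. COL4A1, which encodes the α1(IV) chain, stood at 26.2, 25.2 and 27.7 FPKM in HCC827/GR replicates 1, 2 and 3 and at 2.13 and 2.54 FPKM in HCC827 replicates 2 and 3. The groups were far apart, with means of 26.4 ± 1.28 (SD, n = 3) and 2.33 ± 0.289 (SD, n = 2) FPKM, a ratio of 11.3. COL4A1 rose by 3.04 (SE 0.10, 95% confidence interval 2.77 to 3.31, limma adjusted p = 0.00157), the largest change of the 12 chains.

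COL4A2, which encodes the α2(IV) partner of COL4A1, stood at 25.1, 23.0 and 24.2 FPKM in HCC827/GR and at 5.67 and 6.33 FPKM in HCC827. It was thus as abundant as COL4A1 in the resistant cells and more abundant than COL4A1 in both parental libraries. Its means were 24.1 ± 1.02 and 6.00 ± 0.464 FPKM (SD, n = 3 and n = 2), a ratio of 4.01, and it rose by 1.84 (SE 0.096, interval 1.59 to 2.09, limma adjusted p = 0.00248). Leaving out any 1 library kept the adjusted p of both genes at or under 0.0256.

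Both genes lie head to head on chromosome 13. In GENCODE release 29 (GRCh38), COL4A1 spans chr13:110148963-110307233 on the minus strand and COL4A2 spans chr13:110305812-110513209 on the plus strand, so that their annotated spans overlap. Whether the libraries kept strand is not given in the sources used here, and reads in the overlap could then not be assigned to either strand. The antisense entry COL4A2-AS2 lay at 0.112–0.170 FPKM in HCC827/GR and was 0 in both HCC827 libraries as listed, and COL4A2-AS1 did not exceed 0.299 FPKM. The 10 nearest tested protein-coding genes around the pair, here and below other than collagen chains, had a median change of 0.15, and 1 rose and 1 fell.

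COL4A5, which encodes the α5(IV) chain, stood at 2.48, 2.78 and 2.18 FPKM in HCC827/GR and at 6.38 and 4.49 FPKM in HCC827. All 3 resistant libraries were below both parental ones, with means of 2.48 ± 0.300 and 5.44 ± 1.34 FPKM (SD, n = 3 and n = 2), the latter 2.19 times the former. COL4A5 fell by 0.88 (SE 0.17, interval -1.31 to -0.44, limma adjusted p = 0.0407). This call depended on having all 5 libraries: the adjusted p lay between 0.0623 and 0.131 without any 1 of them, namely HCC827/GR replicates 1, 2 or 3 or HCC827 replicates 2 or 3, and was 0.0797 with no filter on low values.

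COL4A6, which encodes the α6(IV) chain, stood at 0.277, 0.279 and 0.460 FPKM in HCC827/GR and at 1.07 and 0.851 FPKM in HCC827. The groups did not overlap, and the HCC827 mean was 2.83 times the HCC827/GR mean. The change of -0.55 (SE 0.15, interval -0.94 to -0.16) did not pass the test (limma adjusted p = 0.0916). COL4A5 spans chrX:108439844-108697545 on the plus strand and COL4A6 spans chrX:108155607-108439497 on the minus strand, again head to head. The 10 nearest tested protein-coding genes around this pair all had negative values, with a median of -0.70 and 3 that fell, while the median over 361 tested protein-coding genes of chromosome X was -0.18. The part of this stretch in the values of COL4A5 and COL4A6 was not tested.

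COL4A3 and COL4A4, the chains of the third head-to-head pair on chromosome 2, were nearly silent in both groups. COL4A3 had means of 0.0281 FPKM in HCC827/GR and 0.0308 FPKM in HCC827, and COL4A4 had 0.0465 and 0.0664 FPKM.

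The shared promoters of the 2 type IV pairs that were expressed are shown because the changes had the same sign within each pair and opposite signs between the pairs. Each window runs 5′ to 3′ on the strand of the named gene, from 250 bases before the start site to 50 bases past it (RefSeq, GRCh38.p14). Capitals mark GC boxes (GGGCGG, or CCGCCC read from the opposite strand) and CCAAT boxes (CCAAT, or ATTGG from the opposite strand), which share no letters with each other. The windows lie at chr13:110307108-110307407 for COL4A1 (minus strand), chrX:108439588-108439887 for COL4A5 (plus strand) and chrX:108439409-108439708 for COL4A6 (minus strand).
COL4A1: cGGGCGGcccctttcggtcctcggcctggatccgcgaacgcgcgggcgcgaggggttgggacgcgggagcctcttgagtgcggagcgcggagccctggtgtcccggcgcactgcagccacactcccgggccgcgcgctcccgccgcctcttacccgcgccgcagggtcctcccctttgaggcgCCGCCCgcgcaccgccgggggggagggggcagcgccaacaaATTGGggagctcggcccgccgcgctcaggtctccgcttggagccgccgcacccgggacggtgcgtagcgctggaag
COL4A5: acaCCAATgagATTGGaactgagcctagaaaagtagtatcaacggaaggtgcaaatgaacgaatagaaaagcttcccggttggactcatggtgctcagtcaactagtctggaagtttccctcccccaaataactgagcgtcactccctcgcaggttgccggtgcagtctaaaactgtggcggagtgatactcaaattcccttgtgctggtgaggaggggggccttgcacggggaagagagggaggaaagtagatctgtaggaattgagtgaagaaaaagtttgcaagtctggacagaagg
COL4A6: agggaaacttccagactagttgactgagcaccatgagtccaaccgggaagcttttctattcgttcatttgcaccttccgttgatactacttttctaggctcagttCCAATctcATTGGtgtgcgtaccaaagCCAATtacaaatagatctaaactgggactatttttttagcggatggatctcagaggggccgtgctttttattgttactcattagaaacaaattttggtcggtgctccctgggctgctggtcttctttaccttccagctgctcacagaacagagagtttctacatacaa

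The start sites of COL4A1 and COL4A2 are 127 bases apart, and their windows share 226 bases. Those of COL4A5 and COL4A6 are 380 bases apart and their windows share 121 bases, which hold the adjoining CCAAT and ATTGG of both printed X-linked sequences. The COL4A1 window has a GC content of 76.7% and that of COL4A2 77.7%, whereas the COL4A5 window has 49.3% and the printed COL4A6 window 43.7%, and the median over all 35116 RefSeq windows was 58.7%. The windows of COL4A1 and COL4A2 hold GC boxes, as do 45.0% of all windows, and neither printed X-linked window holds one. A second COL4A6 window, further inside the gene, holds 1 GC box and has a GC content of 50.0%. A CCAAT box is present in 34.6% of all windows. These matches are a description of letters and not of binding.

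Windows were found for 29 of the 39 chains and for 9 of the 12 tested. In the 12 windows of those 9 genes, the AP-1 motif TGACTCA, held by 4.95% of all windows, had no match on either strand. The E-box CAGGTG, held by 20.6%, had none there either, and matched in 5 of the 41 windows of the 29 chains. TATAAA, held by 11.5%, matched in 2 of the 12. A CCAAT box, held by 34.6%, lay in 4 of them and a GC box, held by 45.0%, in 10. Some of the 12 windows overlap, so they are not independent, and they are few for motifs as rare as the AP-1 site.

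COL12A1, a FACIT chain that associates with type I collagen fibrils, stood at 11.4, 13.2 and 8.10 FPKM in HCC827/GR and at 0.954 and 1.34 FPKM in HCC827. The lowest resistant library was several times the highest parental one, and the means were 10.9 ± 2.59 and 1.15 ± 0.271 FPKM (SD, n = 3 and n = 2), a ratio of 9.52. COL12A1 rose by 2.45 (SE 0.22, interval 1.87 to 3.04, limma adjusted p = 0.00862). Without HCC827 replicate 2 or HCC827 replicate 3 the adjusted p was 0.0639 or 0.0524. The gene lies at chr6:75084326-75206051 on the minus strand (GRCh38). The 10 nearest tested protein-coding genes had a median change of 0.09, with values between -1.62 and 0.69, and 0 rose and 1 fell.

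The other 8 FACIT chains were below the filter. COL9A2, a chain of the cartilage FACIT collagen IX, had the highest single value of them at 0.560 FPKM in HCC827/GR replicate 1, against 0.258 and 0.290 FPKM in the other HCC827/GR libraries and 0.362 and 0.142 FPKM in HCC827, and the groups overlapped. COL16A1, COL21A1, COL14A1, COL19A1, COL20A1, COL9A1 and COL9A3 did not exceed 0.153 FPKM in any library.

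Among the fibrillar chains, COL5A1, which encodes the α1 chain of the collagen V that helps start fibrils, stood at 6.59, 5.13 and 5.01 FPKM in HCC827/GR and at 1.31 and 1.56 FPKM in HCC827. The groups were well apart, with means of 5.58 ± 0.882 and 1.43 ± 0.175 FPKM (SD, n = 3 and n = 2), a ratio of 3.89. COL5A1 rose by 1.43 (SE 0.14, interval 1.05 to 1.80, limma adjusted p = 0.0106), with an adjusted p of 0.0704 without HCC827 replicate 2 and 0.0565 without HCC827 replicate 3. It lies at chr9:134641774-134844843 on the plus strand. The 10 nearest tested protein-coding genes had a median change of 0.26, and 1 rose and 0 fell.

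COL27A1, a fibrillar chain best known from cartilage, stood at 2.94, 2.71 and 2.57 FPKM in HCC827/GR and at 0.948 and 1.03 FPKM in HCC827. The spread within each group was small beside the difference, with means of 2.74 ± 0.186 and 0.989 ± 0.0581 FPKM (SD, n = 3 and n = 2), a ratio of 2.77. COL27A1 rose by 0.91 (SE 0.099, interval 0.65 to 1.17, limma adjusted p = 0.0117). The adjusted p was 0.0543 without HCC827/GR replicate 1, 0.0696 without HCC827 replicate 2 and 0.0580 without HCC827 replicate 3. It lies at chr9:114155560-114312511 on the plus strand. The 10 nearest tested protein-coding genes had a median change of 0.09, and 1 rose and 3 fell.

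The major fibrillar chains of connective tissue were low. COL1A1, which encodes the α1 chain of type I collagen, stood at 0.860, 0.748 and 0.505 FPKM in HCC827/GR and at 0.733 and 0.391 FPKM in HCC827. The groups overlapped, and the change of 0.13 (SE 0.18, interval -0.34 to 0.59) did not pass the test (limma adjusted p = 0.700). Without HCC827 replicate 3 its value was -0.03. COL1A2, the partner chain, was listed at 0 in HCC827/GR replicate 1 and did not exceed 0.0620 FPKM in any library. COL3A1 lay between 0.0199 and 0.149 FPKM, and COL5A2, a partner of COL5A1, between 0.213 and 0.358 FPKM. COL24A1 lay between 0.0649 and 0.236 FPKM, COL11A2 between 0.0468 and 0.115 FPKM, and COL2A1, COL5A3 and COL11A1 did not exceed 0.0125 FPKM.

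Type VI and type XVIII collagen lie together at the end of the long arm of chromosome 21. COL6A2, which encodes the α2(VI) chain, stood at 10.8, 7.22 and 12.5 FPKM in HCC827/GR and at 2.49 and 3.14 FPKM in HCC827. No library of the groups overlapped, with means of 10.2 ± 2.71 and 2.82 ± 0.458 FPKM (SD, n = 3 and n = 2), a ratio of 3.62. COL6A2 rose by 1.53 (SE 0.24, interval 0.89 to 2.16, limma adjusted p = 0.0276). The adjusted p was 0.0948 without HCC827/GR replicate 1, 0.0647 without HCC827/GR replicate 3, 0.145 without HCC827 replicate 2 and 0.107 without HCC827 replicate 3, and it was 0.0567 with no filter on low values.

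COL6A1, which encodes the α1(VI) chain, stood at 19.6, 14.5 and 25.2 FPKM in HCC827/GR and at 8.76 and 10.3 FPKM in HCC827. All resistant libraries were above the parental ones, but they were widely spread, with means of 19.8 ± 5.33 and 9.53 ± 1.08 FPKM (SD, n = 3 and n = 2), a ratio of 2.08. The change of 0.95 (SE 0.24, interval 0.32 to 1.59) did not pass the test (limma adjusted p = 0.0806). In both COL6A1 and COL6A2, HCC827/GR replicate 2 was the lowest and replicate 3 the highest of the resistant libraries. COL6A3, the chain that completes the common type VI trimer, was much lower, at 0.107, 0.106 and 0.120 FPKM in HCC827/GR and 0.0389 and 0.0169 FPKM in HCC827, and COL6A6 did not exceed 0.121 FPKM.

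COL18A1, a basement membrane multiplexin whose C-terminal fragment is endostatin, stood at 9.04, 10.0 and 6.87 FPKM in HCC827/GR and at 3.36 and 2.93 FPKM in HCC827. The groups did not overlap, and the means were 8.64 ± 1.60 and 3.15 ± 0.304 FPKM (SD, n = 3 and n = 2), a ratio of 2.75. COL18A1 rose by 1.21 (SE 0.17, interval 0.75 to 1.66, limma adjusted p = 0.0215). The adjusted p was 0.0806 without HCC827/GR replicate 1, 0.0599 without HCC827/GR replicate 2, 0.101 without HCC827 replicate 2 and 0.109 without HCC827 replicate 3. An annotated antisense entry, COL18A1-AS1, had means of 0.793 and 0.299 FPKM and did not pass the test (limma adjusted p = 0.131).

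On the plus strand of chromosome 21 (GRCh38), COL18A1 lies at chr21:45405137-45513720, COL6A1 at chr21:45981737-46005050 and COL6A2 at chr21:46098097-46132849. Collagen chains left aside, the 10 nearest tested protein-coding genes had a median change of 0.09 both around COL18A1 and around the type VI pair. These sets hold mostly the same genes, and the collagen chains of this stretch do not count among them. None of those around the type VI pair passed the limma test, and their values lay between -0.78 and 0.45.

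COL8A1, a network-forming chain first known from endothelium, gave no clear value. The entry with the highest mean was a locus assembled from the reads that held no annotated transcript. It was listed at 0 in HCC827/GR replicate 1 and stood at 0.618 and 1.38 FPKM in the other HCC827/GR libraries and at 0.250 and 0.376 FPKM in HCC827. Its change of 0.26 (SE 0.39, interval -0.77 to 1.28) did not pass the test (limma adjusted p = 0.732). The entry that holds annotated COL8A1 transcripts stood at 0.507, 0.484 and 0.435 FPKM in HCC827/GR and at 0.271 and 0.233 FPKM in HCC827, and its mean was below the filter.

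**Figure D3:**
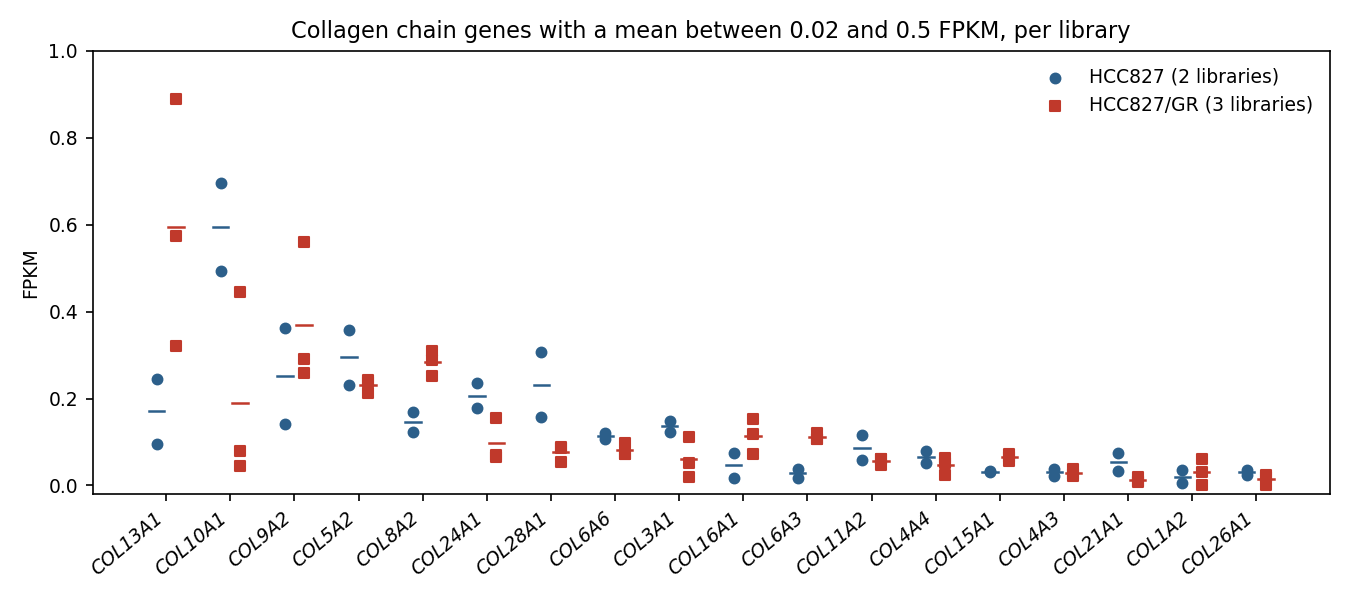
Level in FPKM, on a linear axis, of the 18 collagen chain genes with a mean between 0.02 and 0.5 FPKM. Blue circles are the 2 HCC827 libraries, red squares the 3 HCC827/GR libraries, and short lines the group means. All values lie under 0.9 FPKM, and COL13A1, COL10A1 and COL9A2 are the genes with a library above 0.5 FPKM.

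Of the 27 chains below the filter, 15 were under 0.1 FPKM in every library and COL23A1, a transmembrane collagen, was listed at 0 in all 5. COL13A1, another transmembrane collagen, stood at 0.573, 0.321 and 0.890 FPKM in HCC827/GR and at 0.0962 and 0.246 FPKM in HCC827. COL10A1, the collagen of hypertrophic cartilage, ran the opposite way, at 0.0800, 0.444 and 0.0442 FPKM in HCC827/GR and 0.494 and 0.696 FPKM in HCC827. The groups did not overlap in either gene. COL8A2, a network-forming chain, lay at 0.251–0.309 FPKM in HCC827/GR and 0.124–0.170 FPKM in HCC827, and COL28A1 at 0.0537–0.0887 and 0.157–0.307 FPKM. COL15A1, the multiplexin related to COL18A1, and COL26A1 did not exceed 0.0727 FPKM. Besides COL13A1, every HCC827/GR library was above both HCC827 libraries in COL8A2, COL6A3 and COL15A1. That makes 4 of the 27, where 8.74% of the low entries above 0 in any library did so. COL23A1, at 0 throughout, is not in that base. Besides COL10A1, every HCC827/GR library was below in COL24A1, COL3A1, COL21A1, COL28A1 and COL6A6. That makes 6 of the 27, where 14.8% of the same low entries above 0 did so. The other 17 overlapped. In the 12 tested chains, 8 lay wholly above and 2 wholly below, where 22.8% and 23.4% of the entries tested did so.

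COL7A1, COL22A1, COL25A1 and COL6A5 had no entry under their own symbol and were not analysed here. The transcripts of COL7A1, the anchoring fibril collagen, lay in an entry that joins 4 genes (COL7A1, MIR711, PFKFB4 and UCN2). That entry stood at 7.23, 6.04 and 6.08 FPKM in HCC827/GR and 1.42 and 0.989 FPKM in HCC827, which cannot be assigned to any of these genes.

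Summed over all 39 chains, collagen expression was 117.9, 107.7 and 119.2 FPKM in HCC827/GR and 36.6 and 37.8 FPKM in HCC827. The means were 114.9 ± 6.31 and 37.2 ± 0.818 FPKM (SD, n = 3 and n = 2), a ratio of 3.09. The basement membrane class was at 53.3 ± 1.78 and 14.8 ± 0.746 FPKM, and it made up 46.4% of the collagen sum in HCC827/GR and 39.9% in HCC827. Within it, COL4A1 and COL4A2 together took 43.9% ± 0.722 of the collagen sum in HCC827/GR and 22.4% ± 1.53 in HCC827. The other class was at 40.7 ± 6.92 and 17.2 ± 1.48 FPKM and took 35.3% and 46.0%. The FACIT class, mostly COL12A1 in both groups, had the highest ratio between the groups, 7.57, at 11.4 ± 2.58 and 1.51 ± 0.112 FPKM. The fibrillar class was at 9.51 ± 1.22 and 3.74 ± 0.0289 FPKM. No test was run on these sums, which depend on the choice of members.

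**Figure D4:**
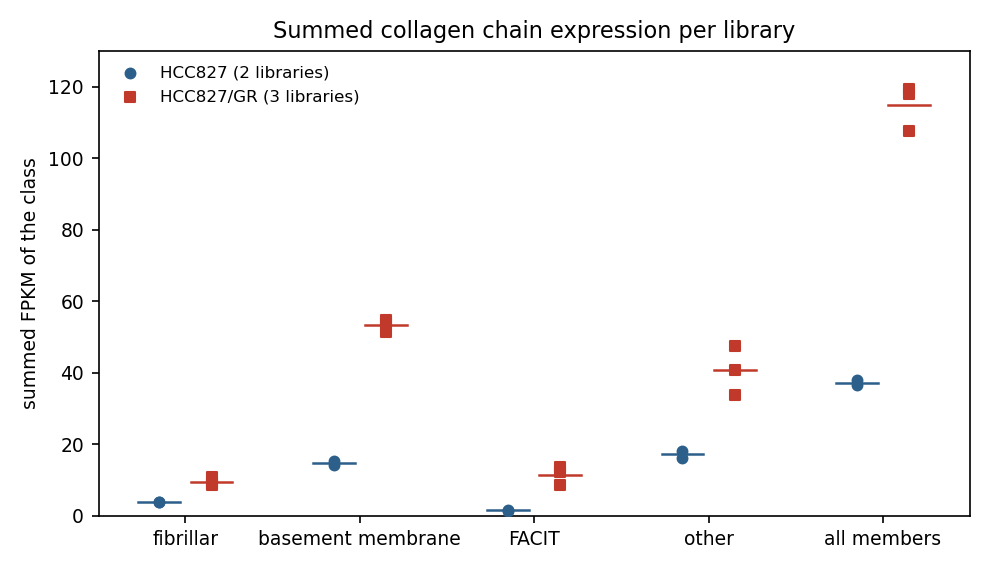
Summed FPKM per library of the fibrillar, basement membrane, FACIT and other collagen chain genes and of all 39, on a linear axis from 0. Blue circles are the 2 HCC827 libraries, red squares the 3 HCC827/GR libraries, and short lines the group means. The red squares of each class lie above its blue circles, and the sum of all members lies at 107.7–119.2 in HCC827/GR and 36.6–37.8 in HCC827.

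Because the chains of a trimer combine in fixed proportions, the ratio of partner transcripts was read in each library. The ratio of COL4A1 to COL4A2 FPKM was 1.05–1.15 in HCC827/GR and 0.375–0.401 in HCC827. COL4A5 and COL4A1 are not partners in the trimers named above, and their ratio sets a chain that fell against a chain that rose. This ratio was 0.0787–0.110 in HCC827/GR and 1.77–3.001 in HCC827. COL4A5 was thus the more abundant transcript of those 2 in the parental cells and the less abundant in the resistant cells. COL4A5 to COL4A6 overlapped between the groups, at 4.74–9.96 and 5.28–5.99.

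The ratio of COL6A1 to COL6A2 was 1.81–2.01 in HCC827/GR and 3.27–3.51 in HCC827, and that of COL5A1 to COL5A2 was 21.0–27.1 and 4.34–5.66. COL6A2 exceeded COL6A3 at least 64.1 times in every library, and this ratio overlapped between the groups. COL1A1 to COL1A2 could not be formed in HCC827/GR replicate 1, where COL1A2 was listed at 0, and was 12.1 and 15.9 in the other HCC827/GR libraries and 20.2 and 85.2 in HCC827, all over COL1A2 levels near 0. The ratios formed in all 5 libraries that did not overlap had an exact two-sided permutation p of 0.1, which is the smallest that 3 libraries against 2 allow. As these ratios were taken for their lack of overlap, this p adds nothing to it. The ratio of COL4A5 to COL4A1 could not overlap, as every HCC827/GR library lay below both HCC827 libraries in COL4A5 and above both in COL4A1.

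**Figure D5:**
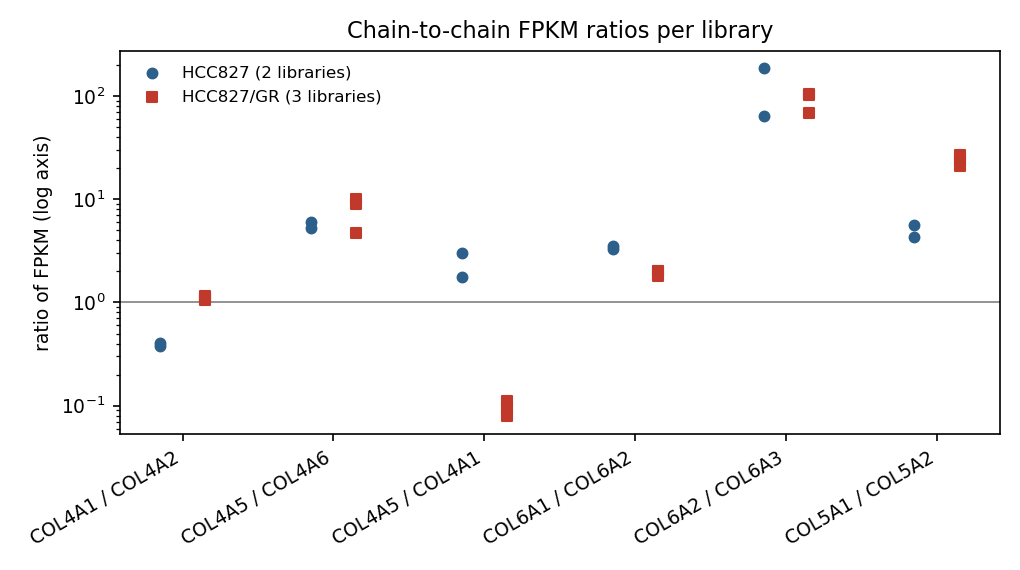
Ratio of the FPKM of partner chains, and of COL4A5 to COL4A1, which are not partners, in each library, on a log axis, with a grey line at 1. Blue circles are the 2 HCC827 libraries and red squares the 3 HCC827/GR libraries. COL4A1 / COL4A2 lies at 1.05–1.15 in HCC827/GR and 0.375–0.401 in HCC827, while COL4A5 / COL4A6 and COL6A2 / COL6A3 overlap between the groups.

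Genes that act on collagen were taken from 5 lists of 74 genes in all, of which 47 were tested. In these lists 7 of the 47 rose and 6 fell, where 5.26% and 5.71% of all entries tested did. Among 7 tested collagen receptors, 1 rose and 3 fell. ITGA2, the α2 integrin subunit that binds collagen with ITGB1, stood at 2.26, 2.42 and 1.79 FPKM in HCC827/GR and 15.5 and 10.1 FPKM in HCC827, and fell by 2.11 (SE 0.21, limma adjusted p = 0.0100). DDR1, a collagen-activated receptor kinase, fell by 1.01 (limma adjusted p = 0.0382), and ADGRG6, an adhesion receptor that binds type IV collagen, fell by 0.72 (limma adjusted p = 0.0235). MRC2, which takes up collagen fragments, rose by 0.87 (limma adjusted p = 0.0235). ITGB1 did not pass the test, with means of 125.5 and 108.9 FPKM.

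Of 21 tested genes for folding, modification and export of collagen, 3 rose and 18 did not pass the test. P3H2, a prolyl 3-hydroxylase, stood at 14.8, 14.7 and 12.9 FPKM in HCC827/GR and 6.46 and 7.23 FPKM in HCC827 and rose by 0.95 (limma adjusted p = 0.0130). SEC23A, a coat protein of vesicles that leave the endoplasmic reticulum, rose by 0.73 (limma adjusted p = 0.0474), and PLOD3, a lysyl hydroxylase and glycosyltransferase, rose by 0.60 (limma adjusted p = 0.0448). SERPINH1, the collagen chaperone, did not pass the test, with means of 2.51 and 3.72 FPKM.

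Of 6 tested genes for propeptide processing and crosslinking, TLL1, a tolloid-like procollagen protease, rose by 0.75 (limma adjusted p = 0.0215) and 5 did not pass the test. Of 3 tested collagen-degrading proteases, MMP1, an interstitial collagenase, fell by 1.39 (limma adjusted p = 0.0445) and 2 did not pass the test. One of those was MMP9, a gelatinase that cleaves type IV collagen, at 12.3, 1.93 and 15.9 FPKM in HCC827/GR and 1.14 and 0.779 FPKM in HCC827, with a change of 2.15 (SE 0.81, limma adjusted p = 0.179). Of 10 tested other components of the basement membrane, HSPG2, the heparan sulfate proteoglycan perlecan, stood at 18.2, 16.8 and 18.6 FPKM in HCC827/GR and 7.76 and 5.83 FPKM in HCC827 and rose by 1.29 (limma adjusted p = 0.0117). NID1, which links laminin to type IV collagen, rose by 1.01 (limma adjusted p = 0.0241). The laminin-332 chains LAMB3 and LAMA3 fell, by 1.15 (limma adjusted p = 0.0489) and by 0.92 (limma adjusted p = 0.0108), and 6 of the 10 did not pass the test.

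Of these 13 calls, that of ITGA2 was the one kept with every library left out in turn. HSPG2 lost its call without HCC827/GR replicate 1 alone (adjusted p = 0.0551), and LAMA3 lost it without HCC827/GR replicate 1 or HCC827 replicate 2. The other 10 lost it in at least 4 of the 5 such fits, with adjusted p-values of up to 0.200. The median change of the lists lay between -0.01 for the proteases and 0.20 for the receptors, beside 0.0014 over all entries tested and 1.08 over the 12 collagen chains. ADGRG6, LAMA3, ITGB1, SERPINH1 and MMP9 were named after their values were seen.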

How the data were processed

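The authors trimmed reads with cutadapt, mapped them with TopHat2 and Bowtie2, estimated expression with StringTie, and deposited 1 table of FPKM per gene or assembled locus. The sources disagree on the library: the labels describe a small RNA preparation read from single ends, the study's methods a ribosomal RNA-depleted library read from paired ends. The submitters' processing notes name hg18, while 135164 of 135299 Ensembl transcript identifiers in the table were found in GENCODE release 29, whose GRCh38 positions are given. Versions of the authors' tools are not given in the sources used here. In the table, 1 FPKM column that matched no deposited sample was not used, nor were the functional annotation columns.

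Replicates were grouped by title. Entries averaging 0.5 FPKM or more across all 5 libraries were compared on log2(FPKM + 1) with limma 3.58.1 (lmFit, eBayes with trend, two-sided, Benjamini-Hochberg adjusted p under 0.05) in R 4.3.3, with no rescaling or covariate. This was tested on simulated data. Sums, ratios, motif searches and plots used matplotlib 3.10.9, scipy 1.17.1, pandas 2.3.3 and numpy 2.4.6 in Python 3.11.15. Collagen chains with a mean of at least 0.5 FPKM, or with any library above 0.5 FPKM, were named with values, others by name or range, and partner genes by the 3 largest changes of each list among those called. Members and lists were chosen with earlier results of these data known. Alternatives were quantile normalization, median-ratio scaling, a pseudocount of 0.1, a minimum mean of 1 FPKM or none, no mean-variance trend, the replicate number as block, Ballgown's model with its covariate for library size, summing the entries that share a symbol, the fold change of at least 2 with an unadjusted p under 0.05, and each library left out.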

Additional observations from a re-analysis of the deposited data

How the results depend on the processing

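Median-ratio scaling, quantile normalization and summed entries moved no count by over 1.5 times. With Ballgown's model 0 chains rose and 0 fell, with a median change of 1.15, and 0 partner genes passed in any list. With the replicate number as a block there were 0 calls among the 16189 entries tested, and so 0 in each class and list. HCC827/GR replicate 1 shares its number with no HCC827 library, so it added nothing to the changes of this fit. They equal those without that library, as for COL4A1 with 3.0426 in both. The block also leaves less from which to estimate the spread, so the 0 calls do not bear on a pairing. At an unadjusted p under 0.05 the block gave 8 of the 12 chains higher and 1 lower, and 10.4% and 11.5% of all entries tested. Over the 14 alternatives the adjusted p of COL4A1 lay between 0.00124 and 0.124, of COL4A2 between 0.00198 and 0.137, of COL12A1 between 0.00707 and 0.196, of COL5A1 between 0.00902 and 0.173, of COL27A1 between 0.0103 and 0.143, of COL18A1 between 0.0197 and 0.207, of COL6A2 between 0.0253 and 0.306, and of COL4A5 between 0.0381 and 0.318. COL6A1 and COL4A6 passed in none of theirs. The libraries shared 2 numbers, and the deviations of same-numbered libraries from their group means had correlations of 0.0328 and 0.0147. The deviations of the 2 HCC827 libraries mirror each other, so these values cannot show whether the numbers mark a pairing. Without the filter 0 chains fell, and 1 other chain, 1 folding gene, 0 proteases (lower) and 1 laminin (lower) were called, with a median of 0.0013 over 38 chains, most of them near 0. A pseudocount of 0.1 gave a median of 1.40, 0 proteases and 1 basement membrane component lower, and a mean of at least 1 FPKM gave a median of 1.43. Without the trend 1 folding gene rose and 1 basement membrane component fell. A fold change of at least 2 gave 0 chains lower, 1 fibrillar chain, 0 receptors, 0 folding and 0 processing genes and 1 protease higher. With the fold taken as the ratio of mean FPKM, an alternative chosen after the data were seen, 8 chains were higher and 2 lower.

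With 1 library left out, 2 to 6 chains rose and 0 fell, with a median of 1.06 to 1.14. By class, 0 to 2 fibrillar, 2 basement membrane, 0 to 1 FACIT and 0 to 1 other chains rose. In the lists, 0 to 1 receptors, folding genes, processing genes and proteases and 0 to 2 basement membrane components rose, and 1 receptor, 0 to 1 proteases and 0 to 2 basement membrane components fell. Where a parental library was left out, the lone one was assumed to vary like the other group. The value of COL1A1 ranged from -0.0292 (without HCC827 replicate 3) to 0.2873 (without HCC827 replicate 2), and that of COL8A1 from -0.0437 (without HCC827/GR replicate 3) to 0.5816 (without HCC827/GR replicate 1). COL8A1 turned to -0.22 with Ballgown's model. Its annotated entry, chosen after the data were seen, gave 0.24 with no filter. The cause of these shifts was not tested. FPKM without read counts sets no known floor for the 27 low chains.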
